A study of Mus musculus with 4 samples.

Results

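The comparison described here sets a combination of 2 antibodies against a single-antibody treatment in immune cells of mouse tumors. It covers 2 of the 4 single-cell libraries of the study, the combination library and the library whose title names the anti-CTLA-4 antibody, called the αCTLA-4-titled library. Its members were the cells of these 2 libraries in which 500 or more genes were detected and mitochondrial genes took no more than 10% of counts. They numbered 7599 of 7630 cells in the combination and 6364 of 6390 in the αCTLA-4-titled library, together 13963 of the 28194 cells kept over all 4 libraries.

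All mice were C57BL/6 animals humanized for CTLA-4, with MC38 tumors, a transplanted colon carcinoma line. Each library came from 11 pooled mice at day 8 after treatment start at about 100 mm3, after 3 treatments. By the sample labels the agents were ipilimumab (hIgG1, 10 mg/kg), the anti-mouse FcγRII antibody AT130-2 with an mIgG1-N297A Fc (20 mg/kg), both of them in the combination, and hIgG1 isotype control (10 mg/kg). The article gives other doses, another day and another number of tumors, and the sample labels are followed here. For the αCTLA-4-titled library the title names ipilimumab and the treatment label names AT130-2, and the αFcγRII-titled library has the reverse. Which of the antibodies the combination adds to the αCTLA-4-titled library is therefore unsettled. There was 1 library per group and no replicate, so no test between groups was possible and each treatment cannot be told apart from its library. The 95% intervals given are exact binomial intervals for shares, log intervals for ratios of shares and exact conditional intervals for ratios of levels, and cover counting error only.

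CTLA-4 is an inhibitory receptor of T cells that regulatory T cells carry at high levels, and FcγRIIB is the inhibitory Fc receptor of macrophages and other myeloid cells. The Fc part of an antibody bound to a T cell can engage activating Fc receptors on macrophages or NK cells. Such cells can then kill or engulf the bound cell, and FcγRIIB restrains that response in the myeloid cells that carry it. Interferon-γ, which T and NK cells release, acts on macrophages and turns on chemokines such as CXCL9 and CXCL10, antigen presentation genes and, together with NF-κB signals, inducible nitric oxide synthase (Nos2).

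By the article, viable lymphocytes were first isolated from digested tumors on a density gradient. Live CD45-positive cells were then sorted, fixed and counted with probe sets (Chromium Flex). This gave unique molecular identifier (UMI) counts for 19059 genes. All class shares, those of neutrophils included, are shares of cells recovered after the gradient, whose part in them was not tested. The αCTLA-4-titled library held 129151823 UMIs and the combination 196362818, with medians of 15351 and 18571 UMIs per kept cell. No full cell barcode occurred in both libraries, but 891 bead barcodes, a part of the full barcode, did. By the article, samples received barcoded probe sets and were pooled before loading. The absence of shared full barcodes therefore does not show separate capture. Lymphocytes, neutrophils and minor classes were set by the number of marker genes detected. Monocytes and macrophages were cells that passed none of those gates and had at least 0.5% of UMIs on macrophage markers. Cells with markers of both a lymphocyte or neutrophil and a macrophage were set apart as mixed. Among the 10 genes with the highest fold in each class against other unmixed cells, T cells had Trac, Cd3e, Cd3d and Cd8a, NK cells and type 1 innate lymphoid cells (NK/ILC1) had Ncr1 and Klrb1c, neutrophils had S100a9, S100a8, Retnlg and Cxcr2, and monocytes and macrophages had C1qa, Apoe and Ms4a7. All of these except Cd8a were markers used to place the cells, so they are no independent check of the classes. Genes not used for that were Themis in T cells, Gzma in NK/ILC1, G0s2 and Lcn2 in neutrophils, and Siglec1 and Folr2 in macrophages. Below, groups of 4 values are in the order isotype control, αCTLA-4-titled, αFcγRII-titled and combination, and a ratio is the combination over the αCTLA-4-titled library unless another is named.

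Neutrophils had a larger share in the combination, and regulatory T cells a smaller one, than in the αCTLA-4-titled library. Monocytes and macrophages made up 63.6%, 66.2%, 76.5% and 58.6% of cells, with a ratio of 0.886 (95% interval 0.863 to 0.909). Within them, macrophages high in C1q (complement C1q genes, typical of mature tissue macrophages) had a ratio of 0.854 (0.824 to 0.885), and the remaining monocytes and macrophages, low in C1q, 0.987 (0.915 to 1.07). T cells took 4.98%, 10.4%, 3.39% and 5.97%, a ratio of 0.577 (0.514 to 0.647). NK/ILC1 made up 3.42%, 6.22%, 3.12% and 4.70%, a ratio of 0.755 (0.657 to 0.868). The share of T cells in the combination was thus lower than in the αCTLA-4-titled library but 1.20 times (1.05 to 1.37) that in isotype control.

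Mixed profiles bear on these shares. T cell and macrophage mixed profiles made up 15.7%, 7.95%, 9.16% and 14.6% of cells, a ratio of 1.84 (1.67 to 2.04), and mixed NK profiles had a ratio of 1.54 (1.23 to 1.92). Counted over every cell that passed the T cell gate, mixed or not, T cells made up 21.9%, 18.8%, 12.9% and 22.4%, a ratio of 1.19 (1.11 to 1.27), so the direction of the T cell share turned with the treatment of mixed profiles. The same count for NK/ILC1 gave a ratio of 0.960 (0.858 to 1.08). Of the cells with the top 5% of doublet scores, 206 of 318 in the αCTLA-4-titled library and 272 of 380 in the combination were mixed profiles, and the part of doublets in the mixed classes was not tested.

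**Figure D1:**
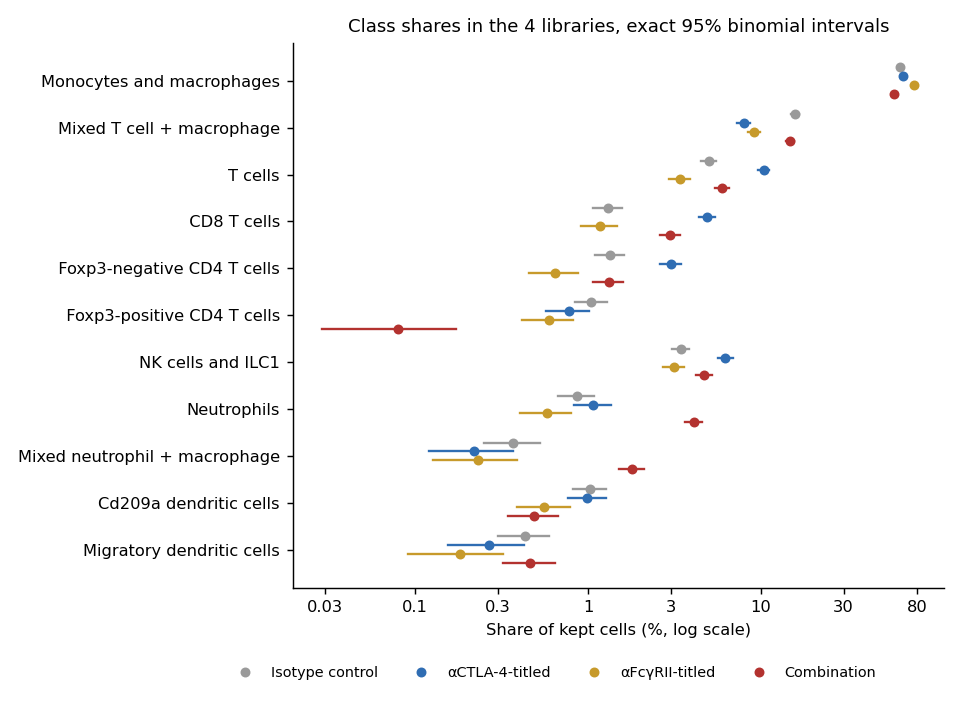
Share of kept cells (%, log axis) in each class for the 4 libraries, with points for the shares and lines for exact 95% binomial intervals. The combination lies furthest right for neutrophils (4.08%) and furthest left for Foxp3-positive CD4 T cells (0.0790%).

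Neutrophils numbered 70, 68, 35 and 310 cells, or 0.859%, 1.07%, 0.575% and 4.08%, a ratio of 3.82 (2.94 to 4.95). All cells past the neutrophil gate, mixed ones included, gave 1.69%, 1.52%, 0.855% and 7.91%, a ratio of 5.19 (4.20 to 6.41). The gate asked for 5 of 9 neutrophil markers, and many cells of the combination lay near it. Exactly 5 markers were detected in 27 cells of the αCTLA-4-titled library and 202 of the combination, and 4 markers in 23 and 255. With a gate of 7 markers, chosen after the data were seen, neutrophils numbered 33, 28, 16 and 61, a ratio of 1.82, so the size of the difference depended on the gate while its direction did not. Levels are counts per 1000000 (CPM), that is, the class total of a gene's UMIs scaled by the class total of all UMIs. The neutrophil markers together reached 171 CPM in macrophages of the αCTLA-4-titled library and 283 CPM in those of the combination, against 37390 CPM in the neutrophils of the combination.

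Dendritic cells were few, and their subsets differed in direction. Those marked by Cd209a, a C-type lectin of monocyte-type and conventional dendritic cells, numbered 83, 63, 34 and 37, a ratio of shares of 0.492 (0.328 to 0.737). Migratory dendritic cells, marked by Ccr7, Fscn1 and Ccl22, numbered 35, 17, 11 and 35, a ratio of 1.72 (0.967 to 3.08), an interval that includes 1. Cross-presenting cDC1 numbered 15, 12, 4 and 7, too few for a difference to be detectable (0.193 to 1.24). Fibroblasts or tumor cells that came through the sort numbered 62, 89, 98 and 71.

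CD4 T cells carrying a UMI of Foxp3, the transcription factor that defines regulatory T cells (chromosome X, 7573644 to 7595245, GRCm38, plus strand), were least frequent in the combination. Isotype control had 85 among 194 CD4 T cells (43.8%, 36.7% to 51.1%) and the αCTLA-4-titled library 49 among 240 (20.4%, 15.5% to 26.1%). In the αFcγRII-titled library they were 36 of 75 (48.0%, 36.3% to 59.9%), and in the combination 6 of 106 (5.66%, 2.11% to 11.9%). The intervals of the αCTLA-4-titled library and the combination do not overlap, and the ratio was 0.277. Mixed T cell and macrophage profiles, which are other cells, gave 50.9%, 25.5%, 52.2% and 11.0% by the same count. After every CD4 T cell was thinned to 2000 UMIs, the shares were 19.6% and 5.10%, a ratio of 0.260 (0.106 to 0.636). As a check on free RNA, a Foxp3 UMI was found in 0 of 243, 0 of 370, 0 of 173 and 0 of 332 thinned NK/ILC1. The exact upper limits were 1.507%, 0.992%, 2.11% and 1.105%, whereas CD8 T cells were defined without Foxp3. There were 1.247, 6.33, 1.97 and 37.7 CD8 T cells per Foxp3-positive CD4 T cell, the last of them resting on 6 cells. Over all kept cells, CD8 T cells had a ratio of shares of 0.611 (0.516 to 0.722), Foxp3-negative CD4 T cells 0.439 (0.345 to 0.557) and Foxp3-positive CD4 T cells 0.103 (0.0440 to 0.239). With mixed T cell and macrophage profiles counted in, chosen after the data were seen, CD8 T cells made up 8.78% and 10.7% of cells, a ratio of 1.21 (1.095 to 1.34), so their direction turned. Foxp3-negative CD4 T cells then had 0.916 (0.786 to 1.07), an interval that includes 1, and Foxp3-positive ones 0.331 (0.223 to 0.492).

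**Figure D2:**
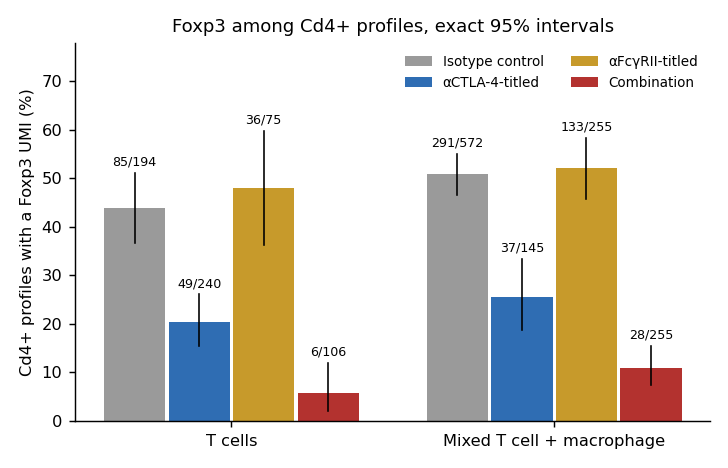
Percent of CD4 profiles with a Foxp3 UMI (axis from 0) in T cells and in mixed T cell and macrophage profiles of the 4 libraries, with exact 95% binomial intervals and the counts above each bar. In both kinds of profile the combination is lowest, at 5.66% and 11.0%.

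Macrophages of the combination had higher levels of Nos2, Inhba, Slpi and Cxcl3 and lower levels of Hspa1a, Hspa1b, Gpr34 and Fcrls. Genes were compared where a library of the pair reached 50 CPM, and a gene was called where the summed levels were at least 2-fold apart. In monocytes and macrophages 49 of 4539 genes were called higher (1.08%) and 16 lower (0.353%), and the median ratio over all 4539 genes was 0.963. The 10 genes with the highest ratios were S100a8, Inhba, Slpi, Cxcl3, Procr, Nos2, Cav1, Ctsk, Slc7a11 and Tnfrsf9, and the 10 with the lowest were Hspa1a, Hspa1b, Gpr34, Fcrls, Tmem176a, Gas6, Tmem176b, Ighm, Lifr and Cbr2.

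Nos2 (chromosome 11, 78920787 to 78960254, GRCm38), which makes nitric oxide from arginine, stood at 107, 255, 79.4 and 983 CPM, a ratio of 3.85 (3.79 to 3.91). The combination was the highest library and the αCTLA-4-titled library the next. Inhba, which encodes the activin A subunit, stood at 8.89, 18.7, 6.21 and 107 CPM, a ratio of 5.70 (5.403 to 6.01). Slpi, a secreted inhibitor of leukocyte proteases, stood at 29.9, 43.5, 18.6 and 229 CPM, a ratio of 5.27 (5.09 to 5.46). For these genes the combination stood above each of the other libraries. Cxcl3, a neutrophil-attracting chemokine, stood at 10.0, 12.9, 7.60 and 65.1 CPM, a ratio of 5.04 (4.73 to 5.38). Procr, the endothelial protein C receptor, had a ratio of 4.19, Tnfrsf9, the costimulatory receptor 4-1BB, 3.43, and Slc7a11, the cystine transporter subunit, 3.601. Cav1, the main protein of caveolae, had a ratio of 3.74 and Ctsk, the collagen-degrading cathepsin K, 3.61. S100a8, a calcium-binding alarmin abundant in neutrophils, had the highest ratio, 6.51, at 11.1, 8.03, 9.99 and 52.2 CPM. Neutrophil markers as a list were also higher in these macrophages, as given above, and their part in the S100a8 value was not tested.

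Fcrls, an Fc receptor-like scavenger gene of resident macrophages, stood at 916, 736, 1162 and 239 CPM, a ratio of 0.325 (0.320 to 0.330). Gpr34, a lysophosphatidylserine receptor, had a ratio of 0.292, Gas6, the bridging ligand of the Axl and Mertk receptors in the uptake of dying cells, 0.346, and Lifr, the leukemia inhibitory factor receptor, 0.458. Cbr2, a carbonyl reductase found in tissue macrophages, had a ratio of 0.461, and the paired membrane proteins Tmem176a and Tmem176b had 0.340 and 0.359. All of these were lowest in the combination library. Hspa1a stood at 495, 401, 435 and 89.3 CPM, a ratio of 0.223 (0.218 to 0.228), and its neighbor Hspa1b had 0.238. The coding sequences of these inducible Hsp70 genes are nearly identical, so their counts cannot be fully separated.

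Inflammatory macrophage genes were higher as a list, with 6 of 11 measured genes called higher, 0 lower, all 11 above a ratio of 1 and a median ratio of 2.20, beside 0.963 over all genes, of which 35.9% were above 1. Acod1, which makes itaconate, stood at 145, 219, 157 and 565 CPM, a ratio of 2.58. Il1a, an alarmin cytokine, had a ratio of 2.50, Slc7a2, an arginine transporter, 2.25, and Ass1, which regenerates arginine, 2.20. Below the 2-fold mark lay Ptgs2 (prostaglandin synthase, 1.88), Il1b (1.48) and Tnf (1.19). Arg1, arginase, which competes with Nos2 for arginine, was also highest in the combination, at 1762, 1995, 1933 and 3891 CPM, a ratio of 1.95 (1.939 to 1.962).

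Interferon-γ response genes had 2 of 19 called higher, 18 of 19 above a ratio of 1 and a median ratio of 1.44. Socs1, a feedback inhibitor of cytokine signaling, stood at 96.6, 129, 66.6 and 309 CPM, a ratio of 2.41, and Cd274, which encodes PD-L1, at 135, 213, 103 and 472 CPM, a ratio of 2.22. The T cell-attracting chemokine Cxcl9 stood at 765, 1450, 688 and 1930 CPM, a ratio of 1.33, and Cxcl10 at 294, 418, 266 and 638 CPM, a ratio of 1.53. In both chemokines the αCTLA-4-titled library was second to the combination. The guanylate-binding proteins Gbp2 and Gbp4 had ratios of 1.67 and 1.89. Ciita, the regulator of MHC class II genes, was the exception at 0.970. Type I interferon genes had 0 of 12 called and a median of 1.07, with Ifit3 lowest at 0.672.

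MHC class I genes had 0 of 12 called and all 12 above a ratio of 1, with a median of 1.26, and B2m, the shared light chain, stood at 1041, 2301, 2018 and 3354 CPM. MHC class II genes had a median of 1.01 over 7 genes. The 15 measured NF-κB and feedback genes had a median of 1.27 with 13 above 1. Oxidative stress genes had 3 of 10 called higher (Slc7a11, Sod2 and Prdx1, ratios 3.601, 2.43 and 2.11) and a median of 1.71, while the metallothioneins Mt1 and Mt2 lay at 0.646 and 0.610. Resident-type macrophage genes had 4 of 11 called lower and a median of 0.674. In C1q-high macrophages the list had 4 of 11 called lower, 1 above 1 and a median of 0.600, whereas in the rest it had 2 of 8 called lower, 1 higher, 4 of 8 above 1 and a median of 0.918, beside 0.950 over all genes. Among them the selenium carrier Selenop stood at 1257, 1298, 1250 and 628 CPM (0.484), the mannose receptor Mrc1 had 0.538 and the folate receptor Folr2 0.879. Cell cycle genes had 0 of 15 above 1 and a median of 0.834.

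Fc receptor genes differed little, with 0 of 6 called and a median of 0.960. Fcgr2b, which encodes the inhibitory receptor, stood at 1215, 1209, 1220 and 1167 CPM, a ratio of 0.965. The activating receptors Fcgr1, Fcgr3 and Fcgr4 had 0.999, 0.911 and 0.972, and the shared signaling chain Fcer1g had 0.954. Fcgrt, the neonatal Fc receptor that recycles IgG, was lowest at 0.593. These are levels of RNA and say nothing of the occupancy of a receptor by an antibody.

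Single members of other lists stood apart from their list. Complement genes had a median of 0.906 over 12 genes, but C3, the central complement component, stood at 338, 492, 230 and 1125 CPM, a ratio of 2.29. Lipid and scavenger genes had a median of 1.19 over 16, with the fatty acid receptor Cd36 at 2.95 (125 to 368 CPM in the pair) and the lipid carrier Apoe at 0.663. Chemokines for monocytes and lymphocytes had a median of 1.01 over 12, with Ccl5 at 2.59 and the monocyte attractant Ccl12 at 0.611. Matrix protease genes had a median of 1.32 over 6, with the macrophage elastase Mmp12 at 2.22. Genes of the TGF-β and activin family had a median of 0.720 over 5, with Inhba called higher, Smad7, the inhibitory SMAD, called lower (0.493), and the receptor Tgfbr1 at 0.555. Hypoxia and glycolysis genes had 0 of 22 called and a median of 1.07.

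**Figure D3:**
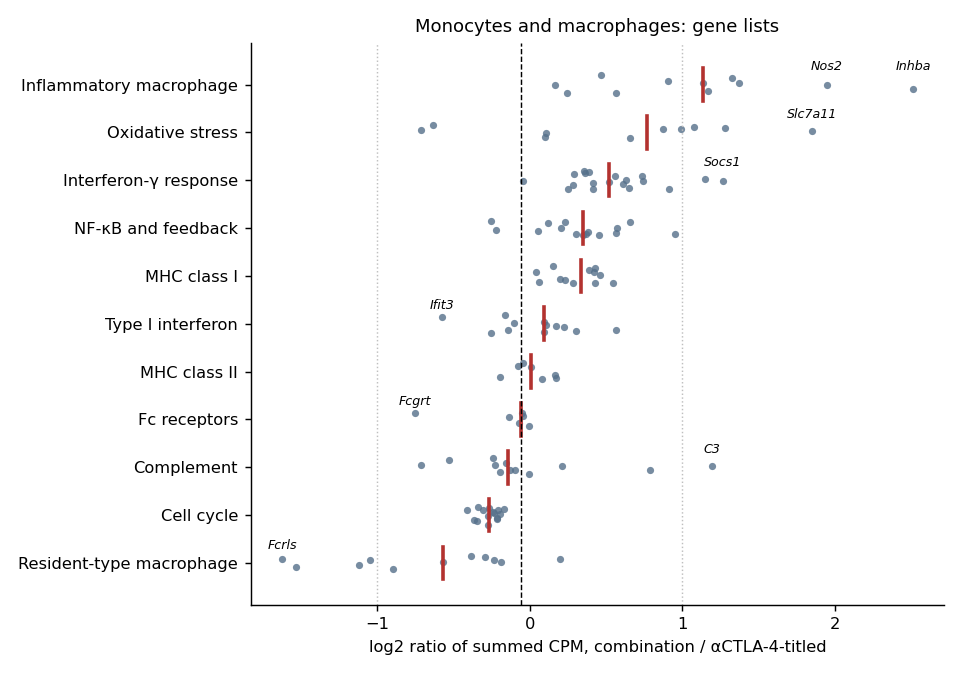
Each point is a gene of a list in monocytes and macrophages, placed by the log2 ratio of summed CPM, combination over αCTLA-4-titled, with list medians as bars, the median of all genes as a dashed line and the 2-fold marks as dotted lines. Inflammatory genes lie furthest right (median ratio 2.20) and resident-type genes furthest left (median ratio 0.674).

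To separate the number of cells with a gene from the depth, every macrophage was thinned to 7000 UMIs, which left out 444 shallower cells of the αCTLA-4-titled library and 503 of the combination. At least 3 Nos2 UMIs were then found in 6.24%, 12.9%, 5.04% and 40.2% of cells, a ratio of 3.13 (2.86 to 3.43), and 10.6%, 18.7%, 9.50% and 48.6% before thinning. An Inhba UMI was found in 3.42% and 14.3% of the pair (ratio 4.18), and a Slpi UMI in 10.7% and 25.8% (2.42). At least 3 Cxcl9 UMIs were found in 40.5% and 55.0%, and at least 3 Arg1 UMIs in 59.7% and 80.0%. At least 3 Fcrls UMIs were found in 38.4% and 16.5%, whereas a Folr2 UMI was found in 26.9% and 25.7%, an indistinguishable pair (0.955, 0.886 to 1.03). In T cells and NK/ILC1, which should lack Nos2, at least 3 Nos2 UMIs were found in 2.30% and 14.97% of cells at that depth. These were the 304 and 334 deepest such cells of the pair, with 751 and 477 shallower ones left out. That background was higher in the combination too, and in both libraries it lay below the macrophage share. Its ratio of 6.50 (2.99 to 14.1) stood above the macrophage ratio of 3.13, with overlapping intervals. The part of this background in the macrophage share was not tested. An Inhba UMI was found in 0.658% and 11.1% of the same background cells, a ratio of 16.8 (4.09 to 69.3) on 2 and 37 cells. In the combination the interval of that background (7.92% to 14.95%) overlaps the macrophage interval (13.2% to 15.5%). The Inhba share of macrophages there is thus not shown to lie above this background, in which free RNA and doublets were not told apart. For Slpi the background was 3.62% and 14.4%, a ratio of 3.97 (2.10 to 7.51). For at least 3 Cxcl9 UMIs it was 3.29% and 13.5%, a ratio of 4.10 (2.10 to 7.98), beside 1.36 in macrophages.

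**Figure D4:**
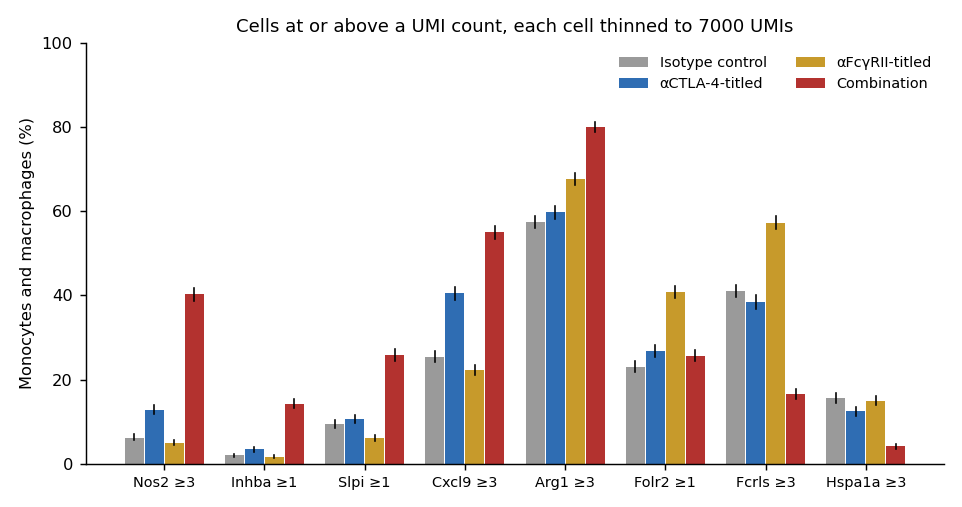
Percent of monocytes and macrophages (axis from 0) with at least the stated UMIs of a gene after thinning each cell to 7000 UMIs, with exact 95% binomial intervals, for the 4 libraries. For Nos2 the combination stands above the other libraries (40.2%), and for Fcrls (16.5%) and Hspa1a (4.12%) below them.

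Inhba, Fcrls and Hspa1a kept their direction among cells in the same range of Nos2 counts, and Cxcl10, Mmp12 and Ptgs2 were among the genes that did not in 1 of the 3 ranges. In thinned cells without a Nos2 UMI (2939 and 1785 cells of the pair), Inhba stood at 6.03 and 35.2 CPM, a ratio of 5.84. With 1 or 2 Nos2 UMIs (345 and 597 cells) its ratio was 3.18, and with at least 3 (483 and 1570 cells) 2.15. Fcrls had ratios of 0.467, 0.344 and 0.230, and Hspa1a 0.172, 0.213 and 0.162, over the same strata. Both were below 1 in each stratum. Cxcl10 had 1.63, 1.498 and 0.774, so its direction turned in the cells with most Nos2. Mmp12 and Ptgs2 turned in cells with 1 or 2 Nos2 UMIs, at 0.639 and 0.671. By C1q content, Nos2 had a ratio of 3.94 in C1q-high macrophages and 3.33 in the rest, and Cxcl9 had 1.34 and 1.39.

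Promoter sequences of interferon-γ response genes are shown because genes of that list stood higher together. Motifs were searched on both strands in 300 bases around the start of each gene (250 before and 50 after it, RefSeq, GRCm38.p6): the interferon-γ-activated site (GAS) TTCNNNGAA, the interferon-stimulated response element (ISRE) TTTCNNTTTC, and the κB motif. Of 21 genes in the list, 15 had a promoter entry, and GAS was present in 7 (46.7%), ISRE in 10 (66.7%) and κB in 3 (20.0%), beside 8.30%, 3.44% and 4.51% of all 32851 promoters. In the lists a gene counted when any of its promoters held the motif, while the share of all promoters counted each promoter singly, so the measures are not alike. Of 12 NF-κB and feedback genes with an entry, 8 (66.7%) held κB. Of 16 resident-type genes with an entry, 0 held GAS, 1 held ISRE and 0 held κB. Of 13 inflammatory macrophage genes with an entry, 0 held GAS, 1 held ISRE and 2 held κB. Nos2 had no promoter entry and was not searched, so none of these counts covers it. In the same order the counts were 1, 3 and 3 of 10 MHC class I genes and 3, 0 and 2 of 10 oxidative stress genes. Among the named macrophage genes with an entry, 2 of 9 higher and 2 of 8 lower ones held κB, and 2 and 0 held GAS. The stretches below are 100 bases ending 11 bases before the start, 5′ to 3′ on the gene's strand, with motif matches in capitals. Socs1 (chr16:10785547-10785646, minus strand) and Igtp (chr11:58199446-58199545, plus strand) had ratios of 2.41 and 1.44 in macrophages. Gbp7 (chr3:142530226-142530325, plus strand) had 1.29 and Cxcl10 (chr5:92348900-92348999, minus strand) 1.53. Cxcl3 (chr5:90785991-90786090, plus strand) is shown as a gene of the 10 highest ratios that held κB. A match is a description of the letters and not a tested site.
Socs1: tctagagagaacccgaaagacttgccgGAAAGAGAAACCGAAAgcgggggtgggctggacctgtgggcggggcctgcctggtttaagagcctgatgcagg
Igtp: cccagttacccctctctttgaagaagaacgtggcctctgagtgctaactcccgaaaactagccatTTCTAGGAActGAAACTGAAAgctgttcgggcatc
Gbp7: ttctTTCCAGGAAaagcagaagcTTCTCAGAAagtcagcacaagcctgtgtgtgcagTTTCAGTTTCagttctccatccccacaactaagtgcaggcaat
Cxcl10: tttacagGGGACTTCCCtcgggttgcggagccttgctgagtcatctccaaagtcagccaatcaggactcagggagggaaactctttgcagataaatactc
Cxcl3: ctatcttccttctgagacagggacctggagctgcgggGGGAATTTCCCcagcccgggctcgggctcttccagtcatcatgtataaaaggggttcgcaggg

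In neutrophils 143 of 3426 genes were called higher (4.17%) and 136 lower (3.97%). The median over all genes was 0.965, and 45.6% of genes were above a ratio of 1. Of the 143 higher calls, 94 stood higher still in macrophages of the combination. At least 1% of UMIs lay on macrophage markers in 18 of 68 and 75 of 310 neutrophils of the pair. Mixed neutrophil and macrophage profiles, 14 and 136 of the pair, were left out of these levels. The part of macrophage RNA and of this selection in neutrophil levels was not tested. The pair held 270005 and 1346763 UMIs in this class, so the αCTLA-4-titled side was thin. Genes of mature neutrophils were lower, with 0 of 13 called higher, 2 called lower, 2 of 13 above 1 and a median of 0.726. Retnlg, a resistin-like secreted protein of mature neutrophils, stood at 2809, 722, 2426 and 313 CPM, a ratio of 0.433 (0.364 to 0.516). In cells thinned to 2000 UMIs, Retnlg was found in 38.5% and 14.95% of the pair, a ratio of 0.389 (0.257 to 0.589). Retnlg is also 1 of the 9 markers of the gate, as are S100a9 and Cxcr2, named next. Padi4, the enzyme that citrullinates histones in neutrophil nets, had a ratio of 0.414, S100a9 0.600 and the chemokine receptor Cxcr2 0.715.

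Summed over all neutrophil markers, levels were 66260, 55370, 82950 and 37390 CPM. With at least 7 markers detected the pair stood at 89210 and 65870 CPM, with 6 at 48850 and 34260 and with exactly 5 at 18920 and 24290. Neutrophils with exactly 5 markers numbered 18 and 113 in the pair, and the part of the gate in the lower levels of its markers was not tested. The macrophage markers stood at 7500 and 7702 CPM in neutrophils of the pair, and in cells with at least 7 markers, 28 and 61 of the pair, Retnlg stood at 1562 and 1323 CPM, closer together than over all neutrophils.

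Inflammatory neutrophil genes had 2 of 18 called higher, 14 of 18 above 1 and a median of 1.37. Il1a stood at 123, 478, 446 and 1016 CPM, a ratio of 2.13 (1.77 to 2.57), and the chemokine Ccl4 at 1448, 2030, 1576 and 4108 CPM, a ratio of 2.02 (1.85 to 2.21). Il1b, at 0.912, and Ptgs2, at 0.678, lay below 1. Interferon-γ response genes had 0 of 19 called but all 19 above 1, with a median of 1.42, among them Gbp2 (1.72), Irf1 (1.58) and Cd274 (1.56). Cxcl10 was found in 18.5% and 34.9% of thinned neutrophils, a ratio of 1.89 (1.11 to 3.23). Oxidative stress genes had 4 of 8 called higher and a median of 1.93, with Sod2, the mitochondrial superoxide dismutase, at 2.27. Prdx1, a peroxiredoxin, had a ratio of 6.14 (3.29 to 12.9) that rests on 10 UMIs in the αCTLA-4-titled library.

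By the naming rule, which passes over genes that stand higher in macrophages, the highest neutrophil genes were Retnla, Mmp19, Ccl24, Prok2 and Traf1. For Mmp19, 86.5% of the UMIs of the combination came from 1 cell, and for Retnla 99.3%, so these describe single cells. Traf1, an adaptor of TNF receptors, was found in 8 of 68 and 101 of 310 cells, at 59.3, 48.2, 57.8 and 163 CPM, a ratio of 3.39 (1.94 to 6.47). The lowest were Hpgd, the prostaglandin-degrading enzyme (0.0697, 0.0270 to 0.162), Arhgef37 (0.189), Med30 (0.210), Mtus1 (0.245) and Krt80 (0.2497).

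In dendritic cells 94 of 4886 genes were called higher (1.92%) and 64 lower (1.31%), with a median of 0.982 and 47.1% of genes above 1. Of the 94 higher calls, 45 stood higher still in macrophages of the combination. The mix of subsets differed as described, so for some genes values within the Cd209a or migratory subset are given beside the sums. Cd209a itself stood at 469, 922, 407 and 303 CPM, a ratio of 0.328, and within the Cd209a subset 0.462. Ccr7, the lymph node homing receptor, had a ratio of 2.19 over all dendritic cells and 1.03 within migratory ones. MHC class II genes had 0 of 10 above 1 and a median of 0.777, with H2-Ab1 at 0.881 in all, 0.950 within the Cd209a subset and 1.29 within migratory cells. Cd274 stood at 251, 239, 236 and 665 CPM, a ratio of 2.78 (2.41 to 3.22). It had 3.11 within the Cd209a subset and 1.49 within migratory cells, so its direction was shared by both of these. Interferon-γ response genes had 1 of 20 called higher, 17 of 20 above 1 and a median of 1.32. The costimulatory genes Cd40, Cd80 and Cd86 had 1.87, 1.79 and 1.34 over all dendritic cells. Within migratory cells Cd40 had 1.34 (1.09 to 1.66), and the part of the subset mix in these sums was not tested. The highest ratios by the naming rule were Slc4a11 (5.48), Cd1d1, which presents lipids to NKT cells (4.05), Xcr1, a cDC1 receptor (3.62), Hspa1a (3.59) and Chst11 (3.50). Within migratory cells Cd1d1 had 2.415 and Chst11 2.17. The cDC1 of the pair numbered 12 and 7. The lowest were Trp53i11 (0.189), Gpr82 (0.255), Stxbp6 (0.278), Sbk1 (0.282) and Cd209a. Hspa1a stood at 214, 32.0, 241 and 115 CPM, so the combination lay below isotype control and the αFcγRII-titled library, and the pair held 35 and 113 UMIs. Within the Cd209a subset its ratio was 3.74, and within migratory cells 0.636 on 4 and 5 UMIs.

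Unmixed CD8 T cells of the combination had lower levels of cell cycle genes. They numbered 310 and 226 in the pair, while 249 and 584 CD8 profiles were set apart as mixed with macrophages. The part of this selection in the levels was not tested. The calls were 331 of 5515 higher (6.00%) and 70 lower (1.27%), with a median of 0.963 and 43.1% of genes above 1. Of the 331 higher calls, 291 stood at a higher level in macrophages of the combination than in CD8 T cells, and these were passed over in naming. Macrophage markers together stood at 3128, 1450, 1141 and 4240 CPM in CD8 T cells, and 9 of 11 inflammatory macrophage genes were called higher. T cell markers together stood at 10240, 11860, 12620 and 7552 CPM, and Cd8a with Cd8b1 at 2644, 3140, 3268 and 2090 CPM. The part of these lower marker levels in the ratios of other genes was not tested. With a limit of 0.2% of a cell's UMIs on macrophage markers (272 and 137 cells), chosen after the data were seen, 35 genes were called higher and 36 lower. The 5 highest names, Retnla, Serpinh1, Cxcl3, Flnc and Ptges, are not T cell genes, and for Retnla, Serpinh1 and Flnc 1 cell held 99.3%, 98.0% and 99.4% of the UMIs.

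Cell cycle genes had 11 of 17 called lower, 0 of 17 above 1 and a median of 0.474. Mki67, the proliferation antigen, stood at 255, 430, 494 and 160 CPM, a ratio of 0.373 (0.331 to 0.418), and 0.570 in the cells low in macrophage markers. In cells thinned to 2000 UMIs, Mki67 was found in 24.6% and 13.9%, a ratio of 0.565 (0.381 to 0.836). Of cells with at least 2 cell cycle genes the shares were 48.1% and 40.2%, a ratio of 0.835 (0.681 to 1.02), whose interval includes 1. The replication histone genes Hist1h1b and Hist1h3c, members of a family with shared sequence, had 0.214 and 0.181. Of T cell receptor V genes, Trbv3 and Trbv31 had 0.172 and 0.217, and neither clones nor the pooled animals were told apart. Ccl24 completed the 5 lowest names, with 98.6% of its UMIs in 1 cell of the αCTLA-4-titled library.

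Tox, a transcription factor of exhausted CD8 T cells, stood at 171, 145, 146 and 35.3 CPM, a ratio of 0.244 (0.191 to 0.309), and 0.278 in cells low in macrophage markers. The pore-forming protein Prf1 stood at 505, 932, 641 and 434 CPM, a ratio of 0.466. Inhibitory receptor and exhaustion genes had 1 of 13 called lower and a median of 0.798, and effector genes had 2 of 19 called higher, 2 lower and a median of 0.748. T cell markers were also lower in these cells, as given above. Gzmb, granzyme B, was found in 47.1% and 45.5% of thinned cells (0.964, 0.797 to 1.17), Ifng in 48.8% and 45.9% (0.941, 0.780 to 1.14) and Pdcd1, which encodes PD-1, in 64.0% and 59.3% (0.927, 0.806 to 1.07). For these 3 genes a difference in the share of cells was not detectable at this depth. Il7r, the interleukin-7 receptor of memory cells, was found in 29.3% and 20.6% (0.702, 0.510 to 0.967). Before thinning its shares were 47.4% and 51.8%, the other direction, so no direction is read from it.

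Unmixed CD4 T cells of the combination had lower levels of Foxp3, Ikzf2 and Klrg1. They numbered 240 and 106 in the pair, while 145 and 255 CD4 profiles were set apart as mixed with macrophages. The part of this selection in the levels was not tested. There were 314 of 5478 genes called higher (5.73%) and 87 lower (1.59%), and 43.7% of all genes were above 1. Of the higher calls, 244 stood higher still in macrophages, and macrophage markers stood at 2919, 1544, 2023 and 2941 CPM. Foxp3 stood at 771, 368, 847 and 63.0 CPM, a ratio of 0.171 (0.123 to 0.233). Ikzf2, which encodes Helios, stood at 708, 395, 701 and 130 CPM, a ratio of 0.329, and Klrg1, a receptor of activated regulatory T cells, at 433, 90.8, 379 and 19.6 CPM, a ratio of 0.216. Il2ra, the high-affinity interleukin-2 receptor chain, had 0.538 and the costimulatory receptor Tnfrsf18 0.738, while Ccr8, a chemokine receptor of tumor regulatory T cells, had 1.86 (1.51 to 2.29). The Treg list had 3 of 12 called lower, 0 higher, 3 of 12 above 1 and a median of 0.694. Among Foxp3-negative CD4 T cells alone it had 0 of 9 called and a median of 0.969, beside 0.948 over all genes. Gzmb stood at 916, 328, 1849 and 104 CPM, a ratio of 0.316. It was found in 12.3% and 6.12% of thinned CD4 T cells of the pair, a ratio of 0.497 (0.212 to 1.16), whose interval includes 1.

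Pdcd1 went the other way, at 244, 401, 342 and 653 CPM, a ratio of 1.63 (1.43 to 1.85), and 1.54 among Foxp3-negative CD4 T cells alone. It was found in 34.2% and 52.0% of thinned CD4 T cells, a ratio of 1.52 (1.17 to 1.98), and Tcf7, a transcription factor of naive and memory cells, in 30.6% and 16.3%, a ratio of 0.534 (0.327 to 0.872). Havcr2, which encodes TIM-3, had a ratio of 3.20 in Foxp3-negative cells on 29 and 69 UMIs. In the same cells inflammatory macrophage genes had a median ratio of 5.84 and Fc receptor genes 4.47. The part of macrophage RNA in the Havcr2 value was not tested. Cell cycle genes had 6 of 12 called lower and a median of 0.514, yet Mki67 was found in 12.3% and 13.3% of thinned cells (1.08, 0.580 to 1.99), so the level and the share of cells differed here.

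Single cells set several CD4 values. Il3 had 940 UMIs in 1 cell of the αCTLA-4-titled library and 0 in the combination, and 94.3% of the Il2 UMIs of the αCTLA-4-titled library also lay in 1 cell. Ifng had a ratio of 0.255 that turned to 1.26 without the cell with most Ifng UMIs in each library. Of the 5 highest names, Ccl17 had 83.6% of its UMIs in 1 cell, Plet1 all in 1 cell, and Ccl22, Cxcl3 and Pdcd1lg2 are myeloid genes. Trbv14 (0.151) and Hist1h2ae (0.187) completed the lowest names with Foxp3, Il2 and Il3.

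NK/ILC1 of the combination had higher levels of granzymes D to G and lower levels of Gzma and Ifng. Mixed NK and macrophage profiles, 117 and 215 of the pair, were left out, and the part of this selection was not tested. Here 77 of 5292 genes were called higher (1.46%) and 14 lower (0.265%), with a median of 0.972 and 42.7% of genes above 1. Macrophage markers stood at 1812, 1640, 1757 and 2217 CPM, and 49 of the 77 stood higher still in macrophages. Gzmf (chromosome 14, 56205263 to 56211417, GRCm38) stood at 1638, 328, 400 and 4678 CPM, a ratio of 14.3 (13.3 to 15.4). It was detected in 9 of 396 and 46 of 357 cells, and 60.3% and 17.0% of its UMIs lay in 1 cell. Without that cell in each library the ratio was 29.9. In cells thinned to 2000 UMIs the shares were 2.88%, 2.16%, 2.31% and 12.3%, and the ratio of the pair was 5.71 (2.717 to 12.01).

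Gzmd stood at 1717, 1278, 1020 and 4682 CPM (ratio 3.66), Gzme at 654, 397, 521 and 1434 CPM (3.61), and Gzmg at 1090, 299, 183 and 1399 CPM (4.68). Gzmc, at 1.79, was not called. These granzymes are a cluster of similar genes whose probes may not separate them fully. Gzma, a tryptase of resting NK cells, stood at 3805, 4747, 3264 and 2225 CPM, a ratio of 0.469 (0.455 to 0.483), and Gzmb and Prf1 had 0.760 and 1.09. Gzmb was found in 71.4% and 59.3% of thinned cells (0.832, 0.745 to 0.928). Effector genes as a list had 4 of 18 called higher, 3 lower and a median of 0.759. Above 1 were 8 of 18, beside 42.7% of all genes.

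Ifng, the gene of interferon-γ, stood at 322, 284, 200 and 110 CPM in NK/ILC1, a ratio of 0.387 (0.338 to 0.442), and was found in 37.0% and 18.98% of thinned cells, a ratio of 0.513 (0.396 to 0.664). The combination was the lowest library for Ifng in this class. Spp1, osteopontin, stood at 447, 379, 700 and 1928 CPM, a ratio of 5.09, and was found in 12.97% and 30.4% of thinned cells (2.35, 1.72 to 3.20). Pdcd1 stood at 67.1, 129, 134 and 264 CPM, a ratio of 2.04, and was found in 4.59% and 14.8% of cells (3.21, 1.89 to 5.47). NK and ILC1 genes as a list had 2 of 16 called lower and a median of 0.789, namely the receptor Klrb1c (0.489) and the integrin Itga2 (0.456). Klrb1c is also 1 of the 10 markers of the NK gate, which together stood at 6898, 6267, 6226 and 4422 CPM in this class. Exactly 4 NK markers, the least the gate allows, were detected in 66 cells of the αCTLA-4-titled library and 165 of the combination. The part of the gate in the levels of this class was not tested. Cells that carried Itga1 or Cd200r1 without Eomes, the ILC1 pattern, made up 13.6% (10.4% to 17.4%) and 15.7% (12.1% to 19.9%) of the class, whose intervals overlap. Fam178b (23.4, on 6 UMIs in the αCTLA-4-titled library) and Galnt18 (5.86) were the other high names. Trdc, the constant gene of the T cell receptor δ chain (0.409), Glcci1 (0.415), Ccr7 (0.203) and Ccl22 (0.0275, with 95.7% of UMIs in 1 cell) were the other low ones.

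**Figure D5:**
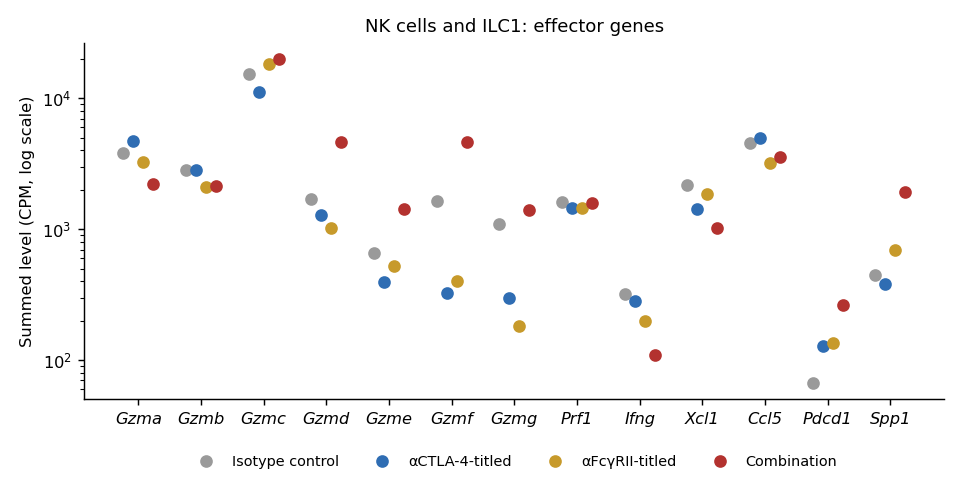
Summed level (CPM, log axis) of effector genes in NK/ILC1, 1 point for each of the 4 libraries and no error bars. Gzmd, Gzme, Gzmf and Gzmg are highest in the combination, which is lowest for Gzma (2225 CPM) and Ifng (110 CPM).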

How the data were processed

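The authors deposited raw UMI counts per gene and cell for 4 libraries, of barcodes that Cell Ranger called as cells (7.0.0 with mm10 per the submitters' processing notes, 7.2.0 per the matrix headers), before any removal of doublets. The members of the comparison, the marker lists and the gene lists were chosen with earlier results of these data known.

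Cells passed a class gate with 4 of 10 T cell markers, 4 of 10 NK markers or 5 of 9 neutrophil markers. A cell past such a gate with at least 8 macrophage markers and 1% of UMIs on them was mixed. Cells past no lymphocyte, neutrophil or minor class gate were monocytes and macrophages if at least 0.5% of UMIs lay on macrophage markers. Of the cells past no such gate, those with under 1% on them and enough dendritic cell markers were dendritic cells instead. CD8 T cells had Cd8a or Cd8b1 and neither Cd4 nor Foxp3, and CD4 T cells had Cd4 and neither Cd8 gene. C1q-high macrophages had at least 10 C1q UMIs per 10000. The clustering of the study was not repeated, and a difference from its cell types may come from these gates. Doublets were not removed, and as an alternative the 5% of cells with the highest Scrublet scores were left out of each library, 318 and 380 of the pair.

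UMIs were summed per class and library and given as CPM. Genes with at least 50 CPM in 1 of the pair were compared, and at least 2-fold apart was called, which is not a test. The text names the 10 highest and 10 lowest ratios in macrophages and 5 and 5 in the other classes. Outside macrophages a gene was passed over when macrophages of the library where it was higher held more of it. Members that define a list, and its extremes, were also named. Of 113 listed markers, 3 were absent from the files. The gate on neutrophils with 7 markers, the shares with mixed profiles counted in, the limit of 0.2% macrophage UMIs and the removal of the richest cell were added after seeing the data. Other alternatives were stricter filters, thinned gates, other minimum levels, other scalings and means over cells. Scripts were tested on simulated data. Python 3.11.15, numpy 2.4.6, scipy 1.17.1, pandas 2.3.3, scanpy 1.11.5 and matplotlib 3.10.9 were used.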

Additional observations from a re-analysis of the deposited data

How the results depend on the processing

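Of 73 alternative values for the class shares, counts of genes, Foxp3 share and Nos2 level, 43 stayed within the counting interval or within 1.5 times the reported count, and of 1175 for single genes and list medians 841 did. The share of monocytes and macrophages had a ratio of 0.987 when gates were set on cells thinned to 3000 UMIs and 1.01 with mixed profiles left out of the denominator, where the direction turned. T cells had 0.655 without mixed profiles, mixed T cell and macrophage profiles 2.14 without high doublet scores and 1.55 with thinned gates, and neutrophils 1.82 with 7 markers. With mixed profiles counted in their class, T cells (1.19) and CD8 T cells (1.21) turned, and Foxp3-negative CD4 T cells had 0.916, Foxp3-positive ones 0.331, NK/ILC1 0.960 and neutrophils 5.19. Nos2 had 3.71 as a mean over cells, 4.07 with median-of-ratios size factors and 3.67 without dividing cells. Genes called at a minimum of 20 and of 100 CPM numbered 784 and 217 in CD4 T cells (reported 401), 737 and 215 in CD8 T cells (401), 399 and 81 in dendritic cells (158), 192 and 46 in NK/ILC1 (91), and 852 and 125 in neutrophils (279), and 42 at 100 CPM in macrophages (65). Means over cells gave 202 in CD8 T cells and 260 in dendritic cells, and split the calls in CD4 T cells into 192 higher and 97 lower. Under 0.2% of UMIs on macrophage markers gave 71 in CD8 T cells and 1676 in neutrophils, the latter on 9 and 26 cells. The same limit split the calls into 469 higher and 1207 lower in neutrophils, 92 and 129 in dendritic cells, 189 and 111 in CD4 T cells and 64 and 26 in NK/ILC1. Directions turned for Ccl24 in CD8 T cells (5.61), Ccl5 in neutrophils (2.73) and Ifng in CD4 T cells (1.26) without the cell with most UMIs. They also turned for Ccr7 in NK/ILC1 (1.12) and the type I interferon median in CD8 T cells (0.999) as means over cells. Under 0.2% macrophage UMIs they turned for Cd36 in dendritic cells (0.896), Cxcl10 and Il1a in CD8 T cells (0.538 and 0.801) and Mtus1 in neutrophils (1.07). The causes were not tested beyond the smaller numbers of cells or genes that these settings leave. No paired analysis was possible because each group had 1 library and no test was made.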

Other observations

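Fibroblasts or tumor cells that came through the CD45 sort (89 cells in the αCTLA-4-titled library and 71 in the combination) held more Cxcl9 and Cxcl10 in the combination. Cxcl9 stood at 22.8, 49.1, 63.4 and 243 CPM in isotype control, αCTLA-4-titled, αFcγRII-titled and combination, a ratio of 4.95 of the combination to the αCTLA-4-titled library (95% counting interval 4.40 to 5.58). Cxcl10 had a ratio of 2.29, while the MHC class I genes B2m, at 1.45, and H2-K1, at 1.35, did not reach 2-fold. The share of T cells and NK/ILC1 with at least 3 Cxcl9 UMIs, a background of free RNA or doublets, was also higher in the combination. It was 3.29% and 13.5% of cells thinned to 7000 UMIs, and the part of this background in these values was not tested. Nos2, which was higher in macrophages of the combination, stood at 76.5 and 74.1 CPM in these cells, a ratio of 0.969. Hspa1a had a ratio of 0.676.

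Mixed T cell and macrophage profiles numbered 506 and 1113 in the pair. For Nos2, Cxcl9 and Foxp3 they differed in the same direction as the classes they combine. Their Nos2 stood at 94.0 and 555 CPM, a ratio of 5.90, their Cxcl9 had 1.37 and their Foxp3 stood at 79.4, 31.6, 82.0 and 6.64 CPM, a ratio of 0.210 (0.184 to 0.240).

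Minor classes were counted without further comparison. B cells numbered 22, 12, 9 and 7, plasmacytoid dendritic cells 17, 9, 4 and 6, and mast cells and basophils 65, 25, 24 and 32.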
